A study of Mus musculus with 4 samples.

Results

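Mouse embryonic stem (ES) cells kept for 12 h with both FGF2 and LIF were compared with the same cells kept for 12 h with both signals blocked, by the MEK inhibitor PD0325901 and JAK inhibitor I. The comparison rested on 1 bead array a side, and its members were the genes with a detection p-value below 0.01 on at least 1 of the 2 arrays. These were 7881 of the 16590 genes with a symbol on the array, and 8341 genes were detected on at least 1 of the 4 arrays of the study. Of the 7881 genes, 6992 were detected on both arrays, 475 with FGF2 + LIF only and 414 with PD0325901 + JAK inhibitor only.

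The cells were the OG2 line, whose name is that of a mouse strain with a green fluorescent reporter driven by regulatory DNA of Pou5f1 (Oct4). All 4 cultures first grew without feeder cells on gelatin in KSR (knockout serum replacement) medium with 1 µM PD0325901, 3 µM CHIR99021, an inhibitor of GSK3, and 1000 U/ml LIF. They were then switched for 12 h to one of 4 media: 10 ng/ml FGF2 with LIF, PD0325901 with 1 µM JAK inhibitor I, FGF2 with JAK inhibitor I at those doses, or PD0325901 with LIF. The labels give no dose of PD0325901 or LIF in the second media and name no CHIR99021 there. The cells on FGF2 + LIF and those on PD0325901 + JAK inhibitor therefore differed in 2 ways at once, since FGF2 stood in place of PD0325901 and LIF in place of the JAK inhibitor. The other 2 arrays each changed only 1 of these. All cells had been in PD0325901, CHIR99021 and LIF until the switch, so that the blocked culture lost LIF and kept the MEK inhibitor, and the stimulated culture kept LIF and lost the MEK inhibitor.

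FGF receptors signal through Ras, Raf, MEK and ERK, and active ERK switches on immediate early transcription factors such as Egr1 together with its own brakes, the Dusp phosphatases and the Sprouty proteins. LIF binds its receptor with gp130 and activates JAK kinases, which phosphorylate STAT3, and STAT3 in turn switches on Socs3, the feedback inhibitor of the receptor complex. In mouse ES cells LIF and STAT3 are known for sustaining self-renewal, and FGF4 made by the cells themselves and acting through ERK is known for preparing them for differentiation.

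With both pathways stimulated, 7 of 23 ERK feedback and immediate early genes and 9 of 18 LIF-JAK-STAT3 targets were at least 2-fold higher. Junb is counted in both lists, and 0 of either list were at least 2-fold lower. Of all genes measured, 1.05% were at least 2-fold higher and 0.292% at least 2-fold lower. The lists were chosen with earlier results of these data known, so their counts are not independent of the data. Socs3 was 23.6-fold higher, Egr1 at least 13.4-fold, Id1, an inhibitor of differentiation factors, 12.1-fold and Bcl3, an IκB-like nuclear co-factor, at least 7.72-fold. The gaps were smaller without a background correction, with log2 differences of 3.36, 2.36, 2.35 and 1.67 in that order. The bounds therefore hold only under the background correction used here. The lowest gene relative to the blocked cells was Lefty1, a secreted Nodal antagonist, whose log2 difference was -1.87. Pou5f1 and Sox2, the core pluripotency factors, differed by 0.00 and 0.02 on the log2 scale.

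Of the 7881 genes, 83 were at least 2-fold higher with FGF2 + LIF (1.05%) and 23 were at least 2-fold lower (0.292%). At 4-fold, 15 were higher and 0 were lower. Of the 83 higher genes, 60 were detected on both arrays and 23 with FGF2 + LIF only, and of the 23 lower genes 14 were detected on both and 9 with PD0325901 + JAK inhibitor only. Levels are given as log2 of the background-corrected and quantile-normalized signal, and differences are FGF2 + LIF minus PD0325901 + JAK inhibitor. The median difference over all genes was -0.02, 95% of the differences lay between -0.66 and 0.76, and 7138 genes (90.6%) were under 1.5-fold. With scaling by the median the split was 128 higher and 11 lower, and with no normalization between arrays 163 and 8. These 2 settings moved the median of all genes to 0.173 and 0.227, which by itself raises the higher count and lowers the lower one. In the authors' value table it was 150 and 88, with a floor of 16 set here on its values. Without a background correction it was 28 and 3, and with a normexp correction 35 and 3.

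**Figure D1:**
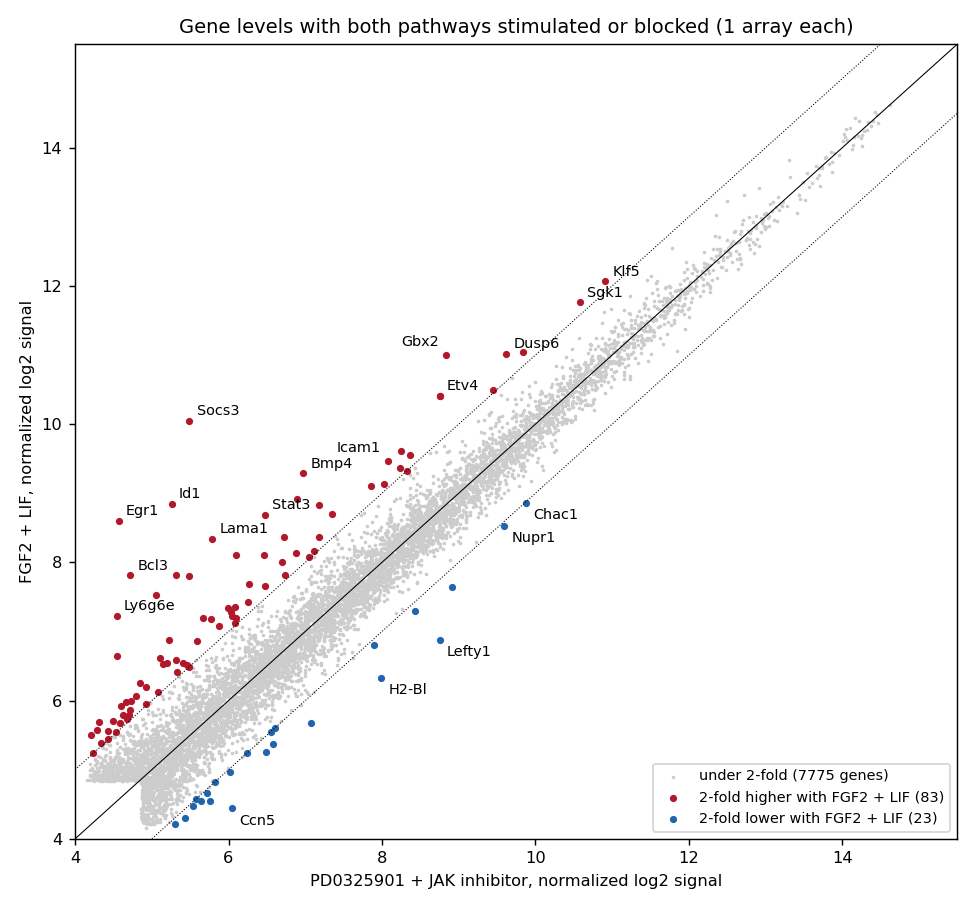
Each point is a gene; the axes are its normalized log2 signal on the array of PD0325901 + JAK inhibitor and on that of FGF2 + LIF, 1 array each. The dotted lines mark 2-fold; 83 genes (red) lie above the upper line and 23 (blue) below the lower one, and the points near both lower edges are genes detected on 1 of the 2 arrays.

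No condition had a second array, so no difference had a test and no p-value was given. The bead standard error, the spread over the beads of 1 probe on 1 array, had a median of 4.11% of the signal with FGF2 + LIF and 4.52% with PD0325901 + JAK inhibitor over the detected probes. It holds no error between cultures or labellings. Of the 106 genes past 2-fold, 97 differed in raw signal by more than 3 combined bead standard errors. These were all 83 higher genes and 14 of the 23 lower ones. Raw signals were not brought to a common scale, and their median was 88.4 with FGF2 + LIF and 82.0 with PD0325901 + JAK inhibitor. That offset favours the higher genes in this count. The markers of ES cells were detected on all 4 arrays (8 of 8), and their summed signal lay between 38268.2 and 39850.8. Marker sums are of normalized levels on the linear scale and include undetected markers. The brightest members lead them, here Dppa5a (log2 14.47 with PD0325901 + JAK inhibitor and 14.35 with FGF2 + LIF). A level sum can therefore hide dimmer members that differ. Of 11 fibroblast and feeder markers, 5 were detected with FGF2 + LIF and 6 with PD0325901 + JAK inhibitor, with summed signals of 3769.4 and 4089.1, and Col1a2, Col3a1, Pdgfrb, Postn and S100a4 were detected on neither. A lower signal from fewer cells of a type and one from less RNA per cell cannot be told apart.

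Among the promoters of the genes that differed, 4 are shown, picked because they hold letters that transcription factors are known to bind. STAT factors bind TTCNNNGAA, the same on both strands, and serum response factor binds the CArG box. Socs3, Icam1 and Sgk1 are on the list of LIF-JAK-STAT3 targets, and Zfp36 is on none of the gene lists. The sequences are the 250 bases before the RefSeq start of each gene, on GRCm38.p6. They are read 5′ to 3′ along the gene, with the matched letters in capitals.
Socs3, chr11:117969367-117969616, minus strand: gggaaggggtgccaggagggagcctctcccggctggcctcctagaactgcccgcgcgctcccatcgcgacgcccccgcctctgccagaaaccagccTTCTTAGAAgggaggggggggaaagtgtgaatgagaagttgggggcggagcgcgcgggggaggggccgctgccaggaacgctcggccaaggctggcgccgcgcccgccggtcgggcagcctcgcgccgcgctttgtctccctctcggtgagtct
Icam1, chr9:21015690-21015939, plus strand: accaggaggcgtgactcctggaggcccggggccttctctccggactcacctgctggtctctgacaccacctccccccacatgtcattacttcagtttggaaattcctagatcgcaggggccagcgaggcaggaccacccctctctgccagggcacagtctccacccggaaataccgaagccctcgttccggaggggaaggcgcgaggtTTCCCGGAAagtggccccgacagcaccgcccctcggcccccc
Sgk1, chr10:21881934-21882183, plus strand: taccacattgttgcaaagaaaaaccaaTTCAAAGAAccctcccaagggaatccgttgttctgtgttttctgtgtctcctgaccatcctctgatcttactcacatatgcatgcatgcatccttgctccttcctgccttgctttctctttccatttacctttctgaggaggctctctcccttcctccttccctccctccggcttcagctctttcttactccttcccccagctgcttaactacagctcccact
Zfp36, chr7:28379229-28379478, minus strand: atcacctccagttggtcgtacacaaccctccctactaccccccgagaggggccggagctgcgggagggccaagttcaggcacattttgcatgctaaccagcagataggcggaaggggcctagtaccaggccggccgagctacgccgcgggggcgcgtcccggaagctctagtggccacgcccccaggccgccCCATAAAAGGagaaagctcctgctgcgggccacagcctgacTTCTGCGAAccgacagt

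The match in Socs3 began 154 bases before the start, that in Icam1 42 bases before and that in Sgk1 223 bases before. Zfp36, which encodes an RNA-binding protein that speeds the decay of AU-rich messenger RNAs, held a CArG box 58 bases and a STAT match 17 bases before its start. Its levels were 5.99 with PD0325901 + JAK inhibitor, 6.39 with FGF2 + JAK inhibitor, 6.74 with PD0325901 + LIF and 7.34 with FGF2 + LIF. In windows that run 50 bases past the start, TTCNNNGAA stood in 11 of 69 windows (15.94%) of genes at least 2-fold higher, in 2 of 18 windows (11.11%) of genes at least 2-fold lower, in 6.78% of 8350 windows of the genes measured and in 8.3% of 32851 windows in all. The windows of 1 chromosome were left out, and 1 gene can have several windows. The CArG box stood in 1 of the 69 windows (1.45%) against 1.28% of the windows of the genes measured, and the cyclic AMP response element TGACGTCA stood in 0 of the 69 against 3.07%. Of the 18 windows of lower genes, 2 (11.11%) held TGACGTCA, both of Sgta, and 0 held the CArG box. Of the 9 LIF-JAK-STAT3 targets past 2-fold, 8 had a window to search. Only 3 of these 8 held TTCNNNGAA, the 3 shown above, and 0 held a CArG box. Of the 7 ERK feedback and immediate early genes past 2-fold, 2 had a window to search and neither held a CArG box or TTCNNNGAA. The other 5 are not in these shares. These letters describe the windows and were not read as bound sites.

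The LIF-JAK-STAT3 target list had 18 of its 22 genes measured. Their median difference was 1.08, against -0.02 over all genes, and 9 of the 18 were at least 2-fold higher and 0 at least 2-fold lower. The percentages of all genes past 2-fold were 1.05% and 0.292%, and the list was chosen with earlier results of these data known. Socs3, the feedback inhibitor of JAK, had a level of 5.49 with PD0325901 + JAK inhibitor, 5.79 with FGF2 + JAK inhibitor, 9.90 with PD0325901 + LIF and 10.05 with FGF2 + LIF. Both arrays with LIF were high and both with JAK inhibitor low. Its raw signal was 101.6 ± 4.16 (bead standard error) in the blocked cells and 1186.2 ± 51.49 in the stimulated ones. Bcl3 had levels of 4.72, 4.48, 7.95 and 7.81 in the same order of arrays, and was not detected on the 2 arrays with JAK inhibitor. It was the same split of the arrays as for Socs3.

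Stat3, which encodes the transcription factor itself, had levels of 6.47, 7.02, 8.21 and 8.69, and was 4.67-fold higher in the stimulated cells. The arrays with LIF were again the high ones, and within each pair the array with FGF2 was the higher. Its 2 other detected probes differed by 1.94 and 0.95. Icam1, a cell adhesion molecule, had levels of 8.08, 8.13, 9.66 and 9.47, so that FGF2 + LIF lay slightly below PD0325901 + LIF. Pim3, a survival kinase, differed by 1.22 and Sgk1, a kinase induced by serum and glucocorticoid, by 1.18. Gbx2, a homeobox factor of naive ES cells, had levels of 8.84, 10.32, 9.40 and 11.00, and here the 2 arrays with FGF2 were the high ones. Klf5, a Krüppel-like factor of self-renewal, had levels of 10.91, 11.50, 11.36 and 12.07, with both single-change arrays between the blocked and the stimulated one. Members under 2-fold included Socs2 (0.28), Cebpb (-0.04) and Pim1 (-0.31, not detected with FGF2 + LIF). A second Pim1 probe differed by 0.57 and was detected with FGF2 + LIF only.

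The genes upstream of STAT3 were close to level. Of 10 components of the LIF receptor and JAK-STAT machinery measured, only Stat3 was past 2-fold, and the median difference was -0.01. Lifr, the LIF receptor, differed by -0.16, Il6st (gp130) by -0.24, Jak2 by -0.11 and Pias3, an inhibitor of STAT3, by -0.37. A second probe of Lifr differed by 0.38 and one of Jak2 by 0.23, each detected with FGF2 + LIF only, and a second Pias3 probe by -0.60. Jak1, Lif and Stat5b were not detected on either array.

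The list of ERK feedback and immediate early genes had 23 of its 33 genes measured, with a median difference of 0.62. Of the 23, 7 were at least 2-fold higher and 0 at least 2-fold lower, against 1.05% and 0.292% of all genes. This list, too, was chosen with earlier results of these data known. Above 0 lay 19 and below it 4, but Egr1, Fos, Myc, Spred2 and Egr3 were detected with FGF2 + LIF only. Such genes entered through the array where they were high, which favours a positive difference. Of the 17 genes detected on both arrays, 6 were at least 2-fold higher and the median was 0.77. Without a detection filter the median was 0.31. Egr1, a zinc finger factor induced within minutes of ERK activation, had levels of 4.57, 8.75, 5.24 and 8.60 with PD0325901 + JAK inhibitor, FGF2 + JAK inhibitor, PD0325901 + LIF and FGF2 + LIF. Both arrays with FGF2 were high, and it was not detected in the blocked cells, where its raw signal was 82.7 ± 2.75 against 474.6 ± 13.43 (bead standard error) in the stimulated cells. Junb, an AP-1 subunit that stands in both lists, had levels of 5.32, 6.54, 7.22 and 7.82. For Junb each single change lay above the blocked array and below the stimulated one.

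Of the brakes of the pathway, Dusp6, Dusp4 and Spry4 were past 2-fold. Spred1 (0.87), Spred2 (0.50, not detected in the blocked cells), Dusp1 (0.45), Il17rd (0.40) and Dusp14 (0.29) were not. Dusp6, the cytoplasmic phosphatase of ERK, had levels of 9.62, 11.05, 9.44 and 11.02, and its other detected probes differed by 1.04 and 1.81. The 2 arrays with FGF2 were nearly level with each other, as were the 2 with PD0325901. Dusp4, the nuclear phosphatase, had levels of 7.18, 9.09, 6.79 and 8.37, and was highest with FGF2 + JAK inhibitor, not with FGF2 + LIF. Its 2 other detected probes differed by 0.62 and 0.78, under 2-fold. Spry4, a Sprouty inhibitor of Ras signalling, had levels of 6.27, 7.13, 5.79 and 7.68. Etv4, an ETS factor of the FGF response, was 3.15-fold higher, while its relative Etv5 differed by 0.12. Phlda1, a pleckstrin homology domain protein, lay at the 2-fold threshold (8.32, 9.23, 7.97 and 9.32).

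The immediate early response was not uniform at 12 h. Fos differed by 0.82 and was not detected in the blocked cells, so that its fold was at least 1.57. Myc was not detected in the blocked cells either, and its fold was at least 1.35. Jun differed by -0.06, Srf, the factor that binds the CArG box, by -0.34 with a second probe at 0.87, and Mcl1, a survival factor, by -0.15. Atf3, a stress-induced factor, was not detected with FGF2 + LIF and was at least 1.65-fold lower. Dusp2, Egr2, Fosb, Fosl1, Ier2, Ier5, Spry1 and Spry2 were not detected on either array.

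The genes that carry the FGF signal to ERK were near level. Of 9 measured, 1 was past 2-fold: Mras, a Ras-related GTPase, with levels of 6.70, 6.69, 7.97 and 8.01. It was high on both arrays with LIF and differed little with FGF2. Fgfr1 differed by 0.04, Fgf4, the ligand made by ES cells, by -0.06, Map2k2 (MEK2) by 0.16 and Eras, an ES cell Ras protein, by 0.37.

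**Figure D2:**
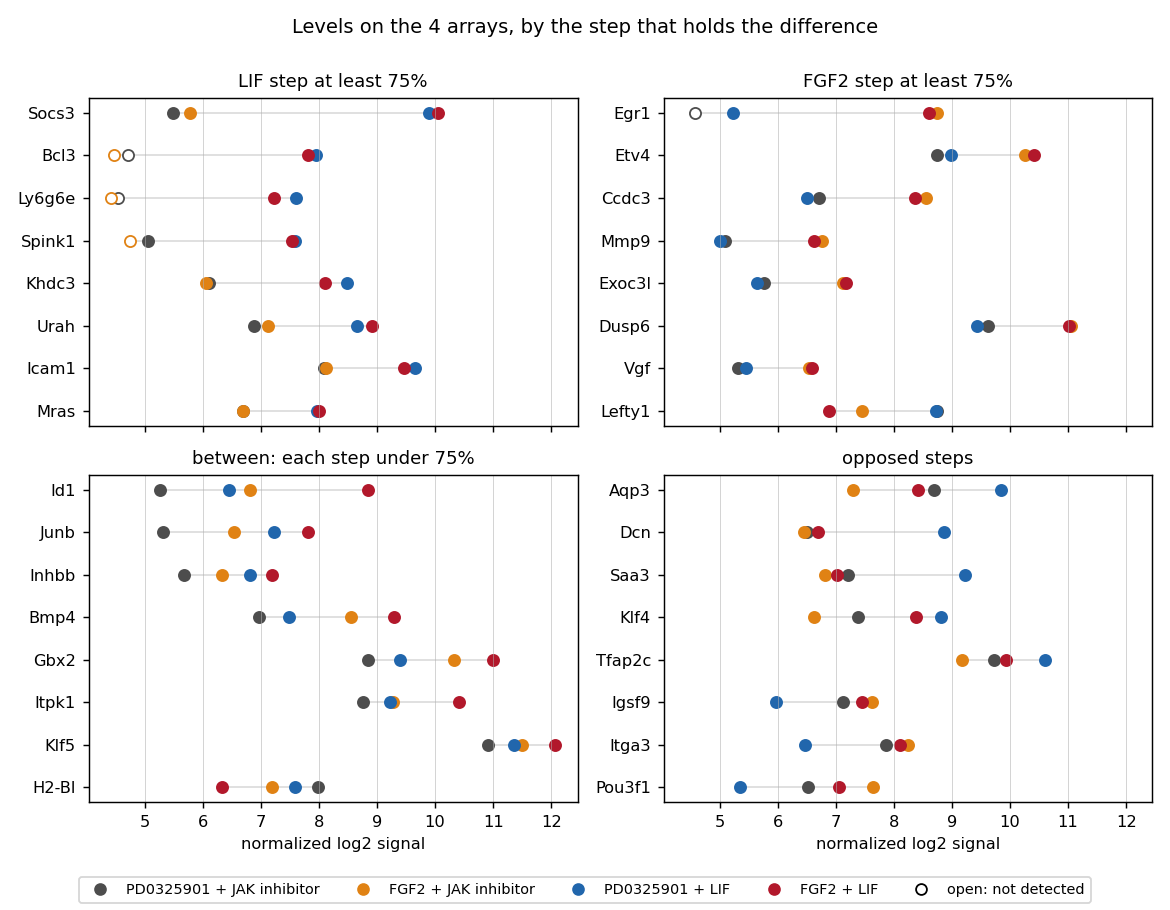
Normalized log2 signal of 8 genes a panel on each of the 4 arrays, 1 point an array, with open points where the probe was not detected. The panels hold genes whose difference lay at least 75% along the LIF step, at least 75% along the FGF2 step, between these, or whose steps were opposed; Socs3 pairs the arrays by LIF, Egr1 by FGF2, and Id1 puts FGF2 + LIF (8.85) apart from the other 3.

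The difference between the 2 arrays is the sum of 2 parts, the mean change where FGF2 replaced PD0325901 (the FGF2 step) and the mean change where LIF replaced the JAK inhibitor (the LIF step), each averaged over the 2 ways to get there. The breakdown was chosen after the values were seen. Of the 83 higher genes, 25 (30.1%) had at least 75% of the difference in the LIF step, 18 (21.7%) had at least 75% in the FGF2 step, and 40 (48.2%) lay between. Both steps reached 1.5-fold in 11 of the 83. Beside Socs3, Bcl3 and Stat3, the LIF-step genes included Ly6g6e, a Ly6 family gene (levels 4.54, 4.42, 7.60 and 7.23, not detected on the 2 arrays with JAK inhibitor), Spink1, a secreted trypsin inhibitor, and Khdc3, a gene of the oocyte subcortical complex (6.10, 6.06, 8.49 and 8.10). All 3 were slightly lower with FGF2 + LIF than with PD0325901 + LIF. The FGF2-step genes, beside Egr1, Etv4, Spry4 and the Dusp genes, included Mmp9, a matrix metalloprotease, which differed by 1.52, and Vgf, a secreted neuropeptide precursor, by 1.28; both were named after their values were seen.

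Genes with both steps were headed by Id1, whose levels were 5.26, 6.82, 6.46 and 8.85. Each single change gave an intermediate level, and the stimulated array stood above all 3 others. Its FGF2 step was 1.98 and its LIF step 1.62. Among the 83 higher genes FGF2 + LIF was the highest of the 4 arrays in 66 and PD0325901 + JAK inhibitor the lowest in 59, with both in 52. Among the 23 lower genes FGF2 + LIF was the lowest in 22 and PD0325901 + JAK inhibitor the highest in 19. The genes were chosen for the difference between these arrays, which favours such orders.

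**Figure D3:**
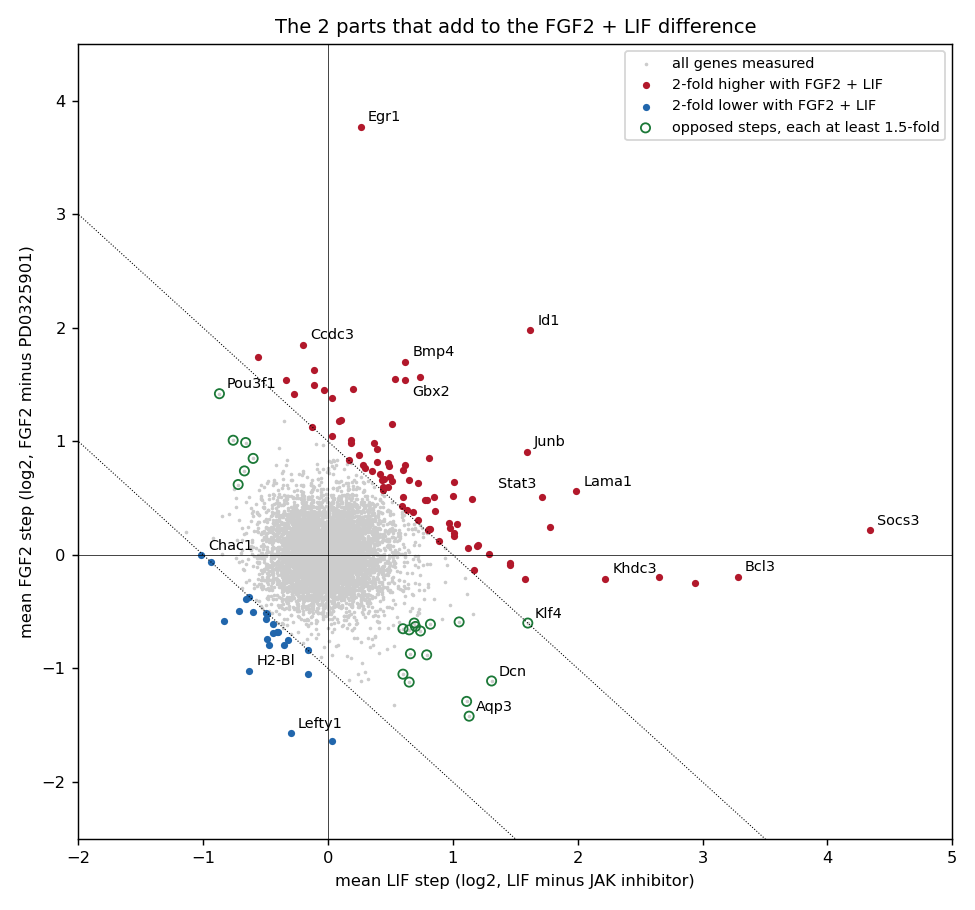
The axes are the mean LIF step and the mean FGF2 step of each measured gene on the log2 scale; their sum is the difference between FGF2 + LIF and PD0325901 + JAK inhibitor, and the dotted lines mark sums of 1 and -1. Socs3 lies far along the LIF axis, Egr1 along the FGF2 axis and Id1 between them. The 21 genes with opposed steps (green rings) lie between the dotted lines, to the lower right or upper left of the origin.

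The remaining pair of arrays, FGF2 + JAK inhibitor and PD0325901 + LIF, has each pathway on in 1 culture and shares no array with this comparison. Of 7931 genes detected in that pair, 60 were at least 2-fold higher with FGF2 + JAK inhibitor (0.757%) and 86 at least 2-fold lower (1.08%). Of the 83 genes higher with both pathways stimulated, 16 were 2-fold higher with FGF2 + JAK inhibitor than with PD0325901 + LIF, 16 were 2-fold lower and 51 were under 2-fold there. Of the 23 lower genes, 1 was higher, 2 were lower and 20 were under 2-fold.

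Some genes had steps in opposite directions that cancelled in this comparison. In 21 genes the FGF2 and LIF steps were each at least 1.5-fold in opposite directions, and 20 of these were under 1.5-fold between FGF2 + LIF and PD0325901 + JAK inhibitor. In 15 the FGF2 step was down and the LIF step up, and in 6 the reverse. Aqp3, a water and glycerol channel, had levels of 8.70, 7.30, 9.85 and 8.41, a difference of -0.29 between the stimulated and blocked arrays within a range of all 4 that ran from FGF2 + JAK inhibitor to PD0325901 + LIF. Pou3f1 (Oct6), a factor of the later epiblast, had levels of 6.52, 7.65, 5.36 and 7.06, the opposite order. Klf4 was the exception: with the brightest probe its levels were 7.39, 6.62, 8.82 and 8.38 and its difference 0.99, just under 2-fold. Its 2 other detected probes differed by 2.08 and 1.74, and neither was 1.5-fold lower with FGF2, so the probes of Klf4 disagree on its FGF2 step. Dcn, a fibroblast proteoglycan, was high with PD0325901 + LIF only (6.50, 6.45, 8.86 and 6.70). The summed fibroblast markers were highest on that array, at 4864.9, but the sum includes Dcn and is not a separate observation. The part of fibroblasts in these values was not tested.

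The naive pluripotency list had 16 of its 20 genes measured and a median difference of 0.03, with 2 members at least 2-fold higher, Gbx2 and Klf5, and 0 lower. The shares over all genes were 1.05% and 0.292%, beside which 0 lower of 16 says little. Tbx3, a T-box factor, differed by 0.91, with other probes at 1.01 and 0.82, and was high on both arrays with LIF (8.36, 8.07, 9.05 and 9.26). Esrrb, an orphan nuclear receptor, differed by 0.29 and Zfp42 (Rex1) by 0.11. Nanog had levels of 10.90, 10.34, 11.32 and 10.71, and Klf2 levels of 11.20, 10.30, 11.40 and 10.86. For both genes PD0325901 + LIF was highest and FGF2 + JAK inhibitor lowest, and the stimulated array lay slightly below the blocked one, by -0.19 and -0.34. Dppa3 (Stella), a maternal factor of naive cells, differed by -0.94 and Crxos by -0.85. Spic was not detected with FGF2 + LIF and was at least 1.15-fold lower. These 3 were lower on both arrays with FGF2 than on both with PD0325901.

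Of the 11 general pluripotency genes measured, 1 was past 2-fold. This was Tdgf1 (Cripto), the co-receptor of Nodal, with levels of 4.93, 4.99, 6.11 and 6.20, high on both arrays with LIF. Its level in the blocked cells lay close to that array's detection limit of 4.86. The difference of 1.27 became 0.54 without background correction, under 1.5-fold. Lin28a, an RNA-binding protein, differed by 0.77, and Utf1 and Sall4 by 0.30 and 0.34. The formative and primed epiblast list had 7 of 16 genes measured and none past 2-fold. Its members pointed both ways: Cldn6 differed by 0.95, Pou3f1 by 0.54 and Dnmt3b, a de novo DNA methyltransferase, by 0.48, while Otx2 differed by -0.43 and Zic2 by -0.85. Sall2 was not detected with FGF2 + LIF and was at least 1.33-fold lower. Otx2 had levels of 7.22, 8.13, 6.98 and 6.79, high with FGF2 + JAK inhibitor only. Fgf5, the usual marker of the primed epiblast, was not detected on either array.

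**Figure D4:**
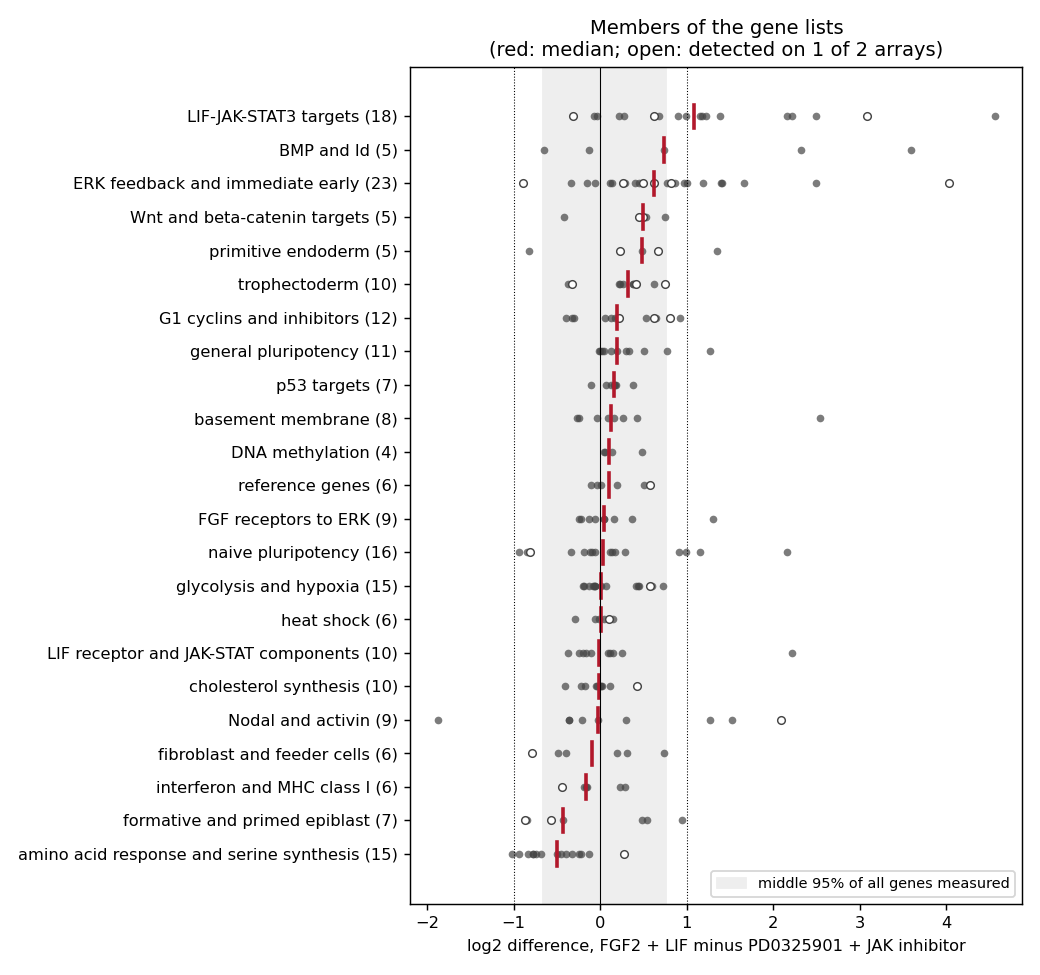
Each point is a member of a gene list, at its log2 difference between FGF2 + LIF and PD0325901 + JAK inhibitor; the number measured stands beside the list's name, red bars are list medians and the grey band holds the middle 95% of all genes. The medians run from 1.08 for LIF-JAK-STAT3 targets to -0.50 for the amino acid response, and lists with fewer than 4 measured genes are not drawn.

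Genes of BMP, Nodal and activin signalling were past 2-fold in both directions. Id1 and Bmp4 were 2 of the 5 BMP and Id genes measured, with a list median of 0.74. That median was 0.01 at a detection p below 0.05, 0.02 without a detection filter, 0.34 without background correction, 0.41 with normexp and 1.03 in the authors' value table. Bmp4, a ligand known to cooperate with LIF in ES cell self-renewal, had levels of 6.97, 8.56, 7.48 and 9.29, higher on both arrays with FGF2. Smad6, a feedback inhibitor of BMP signalling, differed by 0.74 and by 1.32 with a second probe. Id3 differed by -0.13 and Bmp7 by -0.65, and Id2 and Id4 were not detected on either array. The list held members on both sides of 0.

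Of 9 Nodal and activin genes, 3 were at least 2-fold higher and 1 at least 2-fold lower, against 1.05% and 0.292% of all genes. Their median was -0.02. Inhba and Inhbb, which encode the activin beta subunits, had levels of 4.55, 6.45, 5.44 and 6.64, and of 5.67, 6.34, 6.82 and 7.19. Inhba was not detected in the blocked cells and was at least 3.44-fold higher. Lefty1, which blocks Nodal at its co-receptor and is itself a Nodal target, had levels of 8.75, 7.46, 8.72 and 6.88. Both arrays with PD0325901 were high and both with FGF2 low, lowest with FGF2 + LIF. Its raw signal was 428.9 ± 14.20 (bead standard error) in the blocked cells and 188.4 ± 6.17 in the stimulated ones. Of the lower genes, Lefty1 and H2-Bl were the 2 that stayed past 2-fold in every alternative processing run. Lefty2 differed by -0.36 and Nodal by -0.21.

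Lama1, the laminin alpha chain of the embryonic basement membrane, had levels of 5.79, 5.90, 7.33 and 8.34. It was high on both arrays with LIF and highest with FGF2 + LIF. The other 7 basement membrane genes measured were under 1.5-fold, among them Lamc1 (0.27), Hspg2 (0.16) and Col4a1 (0.43), and the list median was 0.13. Gata6, a factor of primitive endoderm, had levels of 5.20, 5.89, 5.75 and 6.55. Dab2, an endocytic adaptor of the same lineage, had levels of 6.89, 6.44, 6.68 and 6.06, lower in the stimulated cells by -0.82, with a second probe at -0.97. Of 9 primitive endoderm markers analysed, 5 were detected with FGF2 + LIF and 3 with PD0325901 + JAK inhibitor, with summed signals of 340.6 and 308.4, and Gata4, Sox17, Pdgfra and Foxa2 were detected on neither array. Of 13 trophectoderm markers, 9 and 8 were detected, with summed signals of 2868.9 and 2308.4, and Cdx2, Elf5 and Hand1 were detected on neither. These sums include undetected markers at background level, and the primitive endoderm sum was higher in the stimulated cells although Dab2 was lower. The part of such cells in the values of Gata6 and Lama1 was not tested.

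Among the further genes with the largest differences, Snai3, a Snail family zinc finger gene, was 4.97-fold higher, Urah, an enzyme of urate breakdown, 4.07-fold and Trf, the iron carrier transferrin, 3.17-fold. Snai3 had its larger part in the FGF2 step (1.57) and Urah in the LIF step (1.78). The value of Urah was high on both arrays with LIF (6.89, 7.13, 8.66 and 8.91).

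The lower genes were fewer and nearer the threshold. After Lefty1 came H2-Bl, a non-classical MHC class I gene, with levels of 7.99, 7.20, 7.59 and 6.33. It was lowest with FGF2 + LIF, and both single changes lay between. Tsc22d3 (GILZ), a glucocorticoid-induced leucine zipper protein, differed by -1.40, Gadd45g, a growth arrest and DNA damage gene, by -1.26 with a second probe at -0.93, Dio3, which inactivates thyroid hormone, by -1.23, and S100a1, a calcium-binding protein, by -1.21. Rhob, a small GTPase, differed by -1.14, Lpl, lipoprotein lipase, by -1.10 and Nupr1, a stress-induced chromatin protein, by -1.06. Rnf215 and Dsn1, the latter a kinetochore protein, were at -1.05 and -1.01. Of the genes not detected with FGF2 + LIF, Ccn5, a matrix-associated CCN protein, was at least 2.31-fold lower, Dgke, a diacylglycerol kinase, at least 1.98-fold, Gyg, which primes glycogen synthesis, at least 1.94-fold and Pacsin3 at least 1.89-fold. Of the 23 lower genes, 17 lay between the 75% limits of the 2 steps, 4 had at least 75% in the FGF2 step and 2 in the LIF step.

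The amino acid response and serine synthesis list stood lowest. Of its 17 genes 15 were measured, 14 of these lay below 0, and the median difference was -0.50. Only Chac1, a glutathione-degrading enzyme induced by Atf4, was past 2-fold, with levels of 9.88, 9.90, 8.89 and 8.86. It was low on both arrays with LIF, and the 2 arrays of each pair were nearly level. Slc6a9, a glycine transporter, had levels of 6.81, 6.70, 5.36 and 5.87, and Psat1, of serine synthesis, 11.84, 11.79, 11.08 and 11.06, with the same low arrays. Atf4 itself, the transcription factor of the response, differed by -0.78 and Ddit3 (CHOP) by -0.83. These 2 were lowest with FGF2 + LIF, and PD0325901 + LIF lay closer to the arrays with JAK inhibitor. The remaining gene, Slc3a2, was not detected in the blocked cells and lay close to the detection limit in the stimulated ones. The list median stayed below 0 in every alternative, between -0.25 with no normalization and -0.59 for genes detected on both arrays.

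Most other lists lay near 0. The medians were 0.01 for 15 glycolysis and hypoxia genes, -0.01 for 10 cholesterol synthesis genes, 0.01 for 6 heat shock genes, 0.16 for 7 p53 targets, -0.16 for 6 interferon and MHC class I genes and 0.10 for 4 DNA methylation genes, with 0 members past 2-fold in any of them. The 12 G1 cyclins and inhibitors had a median of 0.20, with Ccne1 (cyclin E1) at 0.92 and Ccnd3 (cyclin D3) at 0.65. The 5 Wnt targets had a median of 0.50, which was 0.17 without background correction, 0.22 with normexp, 0.24 without a detection filter and 0.00 in the authors' value table. Axin2, a feedback inhibitor of Wnt signalling, differed by 0.75 and Tcf7l1, a repressor of Wnt targets, by -0.42, and Cdx1 and Sp5 were not detected in the blocked cells. The 10 trophectoderm genes had a median of 0.32, and the 6 fibroblast genes -0.09. Of the 6 reference genes, Hprt differed by 0.01, Tbp by -0.11 and Actb by 0.51. The other 3 detected probes of Actb differed by 1.60, 0.64 and 0.42, so Actb was not a level reference between these arrays. Only 2 primitive streak genes and 1 neuroectoderm gene were measured, which leaves those lists without a usable median. Evx1 and Eomes were not detected in the blocked cells, with folds of at least 1.26 and at least 1.06, and Nes differed by 0.46.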

How the data were processed

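Total RNA of 4 cultures was amplified, labelled with Cy-3 and hybridised to 1 Illumina bead array each, per the labels' protocols. The submitters' processing notes name BeadStudio and state neither version nor settings. Each deposited table listed, per the file headers, the signal intensity of 25697 probes with bead standard errors and detection p-values. The authors' value table of normalized intensity, whose scaling is unstated, served as an alternative only.

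Signals were background-corrected (limma 3.58.1 in R 4.3.3, nec with detection p-values, offset 16), log2-transformed and brought to 1 distribution by quantile normalization of the 4 arrays. Probes without a symbol (664 of 11360 detected) were left out. The brightest detected probe, by mean level on the 2 arrays, stood for its gene; 2038 genes had several. A gene undetected on 1 array has a fold bound, from the detected signal to the other array's detection limit (log2 4.84 and 4.86) or its value where higher. The script was tested on simulated data.

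Named genes were the 12 largest differences each way among genes detected on both arrays, the 4 largest bounds each way, list members past 2-fold with their further probes, and a set of 30 genes, 29 measured (Tfcp2l1 was not analysed here). Other genes were named after their values were seen. Members and all 25 gene lists were chosen with earlier results of these data known. The steps, the opposed genes and the other pair of arrays were added after the values were seen. Promoters and gene names came from RefSeq (GRCm38.p6); the probes' own build is not stated. Alternatives varied background, normalization, detection, probe choice and threshold. No replicate could be left out.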

Additional observations from a re-analysis of the deposited data

How the results depend on the processing

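The counts of genes past 2-fold depended on the background correction and the scaling. Without background correction 28 genes were higher with FGF2 + LIF and 3 were lower. The counts were 35 and 3 under a normexp correction (offset 50), 128 and 11 with median scaling, 163 and 8 with no normalization, and 150 and 88 in the authors' value table. At 1.5-fold they were 430 and 313. Median scaling moved the median of all genes to 0.173 and no normalization to 0.227, so differences under these 2 are relative to that shift. Requiring detection on both arrays left 14 lower genes, as did requiring the bead error to be passed. For ERK feedback and immediate early genes the list's median was 0.29 without background correction, 0.37 with normexp and 0.31 without a detection filter, where undetected genes enter. The median of the naive list was 0.24 with median scaling and 0.29 with no normalization, close to the shift of all genes. The median of the LIF-JAK-STAT3 target list lay between 0.95 and 1.36. Members at least 2-fold higher ran from 4 to 9 in the ERK list, from 8 to 11 in the LIF-JAK-STAT3 list and from 2 to 4 in the naive list. Lower members appeared in the authors' value table only, 1 in the ERK list and 2 in the naive list. The list of formative genes changed sign to 0.48 when only genes detected on both arrays were kept, and the primitive streak list to -0.06 without a detection filter; both rest on few genes. Of the 106 genes past 2-fold, 106 kept their sign under every alternative run, 69 stayed past 1.5-fold and 30 past 2-fold (28 higher, and Lefty1 and H2-Bl lower). No paired analysis was possible because each condition had 1 array. The precision is limited by 1 array per condition and, for dim probes, by signals near background.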

Other observations

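The genes given here were past 2-fold in the same comparison and were picked after their values were seen, so they stand for no group. Levels follow in the order PD0325901 + JAK inhibitor, FGF2 + JAK inhibitor, PD0325901 + LIF, FGF2 + LIF. Tnc (tenascin C), an extracellular matrix protein, had levels of 6.04, 7.18, 6.99 and 7.23, and its 2 other detected probes differed by 0.96 and 0.64. Plaur, the urokinase receptor, had levels of 5.41, 6.13, 5.50 and 6.54, high on both arrays with FGF2. The metalloprotease genes split: Mmp9 was high with FGF2 (5.10, 6.76, 5.01 and 6.62), and Mmp3 was high with LIF (4.31, 4.69, 6.24 and 5.69) and not detected in the blocked cells.

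Myd88, the adaptor of Toll-like receptors, had levels of 5.87, 6.41, 7.23 and 7.08, and Irf9, a transcription factor of the interferon response, had levels of 4.93, 5.43, 6.19 and 5.95. Both were higher on the arrays with LIF. Trh, the precursor of thyrotropin-releasing hormone, was 3.12-fold higher (6.46, 7.14, 7.80 and 8.10), with the single changes between. Robo4 and Esam, known from endothelial cells, were high on both arrays with FGF2 (6.47, 7.60, 5.72 and 7.66, and 5.59, 6.42, 5.34 and 6.86). Fgf17, an FGF ligand, had levels of 5.46, 5.98, 6.28 and 6.52, and Itpk1, an inositol phosphate kinase, of 8.76, 9.28, 9.23 and 10.41, highest with FGF2 + LIF.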
